A study of Mus musculus with 67 samples.

Results

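The genes described here encode the machinery that builds the mitotic spindle, joins chromosomes to it and controls when they part. A list of 43 symbols was looked up in the deposited expression table, and all 43 were found among its 26414 genes. RNA had been measured by SMART-seq2, a full-length single-cell method, in 67 libraries of C57BL/6 mouse embryos at 5 stages, with 2, 4 or 8 cells, as morulae or as blastocysts. All embryos came from in vitro fertilization of oocytes of hormone-primed females aged 6 weeks with sperm of males aged 10 weeks. The light group was exposed to 5000 lx for 6 h as 2-cell embryos and then kept in the dark, and the control group was kept in the dark throughout. The control group held 7, 6, 4, 13 and 3 libraries at these stages in order, and the light group 6, 8, 8, 6 and 6. The study describes each library as 1 cell picked by mouth pipette from a dissociated embryo, the labels number the embryos, and neither gives the position of a cell in the cell cycle. No source names the mouse behind a library, so p-values measure the spread between libraries.

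At mitosis the kinetochore, a stack of proteins assembled on centromeric chromatin, binds spindle microtubules, and unattached kinetochores feed the spindle assembly checkpoint, which holds back the anaphase-promoting complex by binding its activator Cdc20. Once all chromosomes are attached, the complex destroys securin and cyclin B, separase opens the cohesin rings, and the sister chromatids part. Cleavage-stage blastomeres divide without growth and begin with RNA stored in the oocyte, which is replaced by RNA of the embryonic genome, and genes of late mitosis are commonly driven from promoters that carry a cell cycle homology region (core TTTGAA) and CCAAT boxes bound by NF-Y.

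Promoters are shown for the 4 members with the smallest adjusted p in light 2-cell libraries (Kif11, Aurka, Cdc20 and Plk1) and, for contrast, for Aurkc, which had the largest difference at the 8-cell stage. Each is the 150 bases before the earlier of the RefSeq and GENCODE starts of the gene, 5′ to 3′ on the strand of the gene, from RefSeq on build GRCm38.p6, and capitals mark TTTGAA or its reverse complement TTCAAA, and the box CCAAT or its reverse complement ATTGG.
Kif11 (chr19:37376232-37376381, plus strand): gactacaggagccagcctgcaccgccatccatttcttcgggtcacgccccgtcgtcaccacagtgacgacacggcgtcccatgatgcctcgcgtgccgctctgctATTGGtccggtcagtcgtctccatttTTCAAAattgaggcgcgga
Aurka (chr2:172370571-172370720, minus strand): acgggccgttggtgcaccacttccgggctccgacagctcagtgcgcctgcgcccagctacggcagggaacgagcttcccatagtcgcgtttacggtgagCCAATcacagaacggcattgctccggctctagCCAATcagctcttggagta
Cdc20 (chr4:118437353-118437502, minus strand): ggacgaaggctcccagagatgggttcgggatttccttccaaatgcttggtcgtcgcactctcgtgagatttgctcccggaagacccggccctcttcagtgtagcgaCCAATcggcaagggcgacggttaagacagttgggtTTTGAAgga
Plk1 (chr7:122159285-122159434, plus strand): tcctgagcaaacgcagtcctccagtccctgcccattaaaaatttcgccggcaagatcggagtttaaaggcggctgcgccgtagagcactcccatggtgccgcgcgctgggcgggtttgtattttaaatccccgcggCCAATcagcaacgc
Aurkc (chr7:6995150-6995299, plus strand): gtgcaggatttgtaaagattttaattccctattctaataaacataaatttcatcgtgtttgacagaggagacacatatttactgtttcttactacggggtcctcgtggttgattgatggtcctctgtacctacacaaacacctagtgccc
Since the GENCODE start of Cdc20 and Aurkc is the earlier one, their stretches end 9 and 85 bases short of the RefSeq start, and the other 3 end at it. In Cdc20 and Kif11 both motifs lay before the start, with the first base of TTTGAA at position -18 and of TTCAAA at -19, counted back from the RefSeq start. In Plk1 and Aurka TTTGAA lay just after the RefSeq start, at positions 31 and 33, and in Cenpa at 17, as the 30-base stretches below show. The GENCODE start of Aurka falls within this motif, and that of Cenpa lies 109 bases before the RefSeq start. The stretch of Aurkc held neither motif. With the 50 bases after the RefSeq start included, Aurkc held CCAAT or its reverse complement but still not TTTGAA.
Plk1 (chr7:122159453-122159482, plus strand): cccagcgccgcgTTTGAAttcggggaggag
Aurka (chr2:172370521-172370550, minus strand): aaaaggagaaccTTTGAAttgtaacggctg
Cenpa (chr5:30666890-30666919, plus strand): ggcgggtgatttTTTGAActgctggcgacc
A promoter was found for 37 of the 43 members and for 27025 genes in all. Within 250 bases before the start, TTTGAA on either strand was in 9 of 37 members (24.3%) and in 18.3% of all promoters, and CCAAT in 23 (62.2%) and in 37.5%. Both were in 8 members (21.6%), which were Bub3, Cdc20, Cenpn, Espl1, Kif11, Ncapd2, Ncapg and Smc2, and in 6.45% of all promoters. With the 50 bases after the start included, a window added after the first was seen, both were in 17 members (45.9%) and in 7.97% of all promoters. A match is a match of letters and may share a base with another.

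Total reads per library lay between 836011 and 8551674, and 54.0% to 89.3% of them were on the ribosomal RNA-like genes CT010467.1 and Gm42418. How far the reads of these genes entered the authors' scaling was not tested. The members took 1990 to 22247 reads of a library (median 6192). Of 2881 member values 58 were 0, and each library held reads of 38 to 43 members. Reads of 24 members were in all libraries, while Aurkc was at 0 in 13, Nuf2 in 9, Cenpc1 in 7, Cenpi in 5, Cenpk and Sgo1 in 3 each and another 13 members in 1 or 2. Libraries differed by group beyond the treatment. The ratio of Gm42418 to CT010467.1 was 1.65 ± 0.0697 in 6 light and 3.00 ± 0.668 in 7 control 2-cell libraries (exact permutation test, two-sided p = 0.00117), it differed likewise at the 4-cell, 8-cell and morula stages (p = 0.00133, 0.00404 and 7.37e-05), and at the blastocyst stage the exact p was 0.667. The libraries with Y-linked genes at 10 RPM or more (scaled to the reads outside these 2 genes) were counted. At the 2-cell stage they were 3 of 7 control and 2 of 6 light libraries. At the 4-cell stage they were 4 of 6 and 8 of 8, and at the 8-cell stage 0 of 4 and 3 of 8. In morulae they were 0 of 13 control and 1 of 6 light libraries, and in blastocysts 0 of 3 and 6 of 6. Light, the handling of the libraries and the embryos they came from therefore cannot be told apart. Control 4-cell library 3 correlated more with light (median 0.888) than with other control 4-cell libraries (0.849), and results at that stage are also given without it. Oocyte markers summed to 2441 to 5365 in control and 690 to 2149 in light 2-cell libraries, 2 of the 8 markers being called lower, and their part in the results was not tested. Markers of the 2-cell stage summed to 54.6 to 361 (median 103) in control and 0.532 to 126 (median 4.98) in light 8-cell libraries. In control 4-cell libraries they summed to 1.37 to 7.22. Their part in results that rest on the control 8-cell libraries was not tested. Summed markers of cumulus cells stayed under 70.1 and of sperm under 10.5 in all libraries.

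Levels are given as deposited, as reads divided by the size factor of the library. Cdc20 was the most abundant member per kilobase of exon in every control group except the 2-cell stage, where it came after Pttg1, the gene of securin (121 against 194 per kilobase). At the control 4-cell stage Cdc20 reached 694 per kilobase, ahead of Pttg1 (253), Plk1 (214) and Aurka (208), while Nuf2 had 2.05. By the mean of log2(value + 1), 22 members were highest in control 2-cell embryos and 17 in 4-cell embryos, with Cenpa highest in 8-cell embryos, Cenpm in morulae and Bub1b and Mad1l1 in blastocysts. Among light embryos 26 members peaked with 2 cells and 12 with 4 cells, Cenpk with 8 cells, and Cenph, Cenpm, Spc24 and Smc2 in morulae. The stage of the highest mean was the same in both groups for 28 members. These are orders of means and not tests, and neighbours in them often overlapped. The spread over the 10 group means lay between 1.89 (Bub3) and 5.71 (Aurkc) on the log2 scale, with a median of 3.16.

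**Figure D1:**
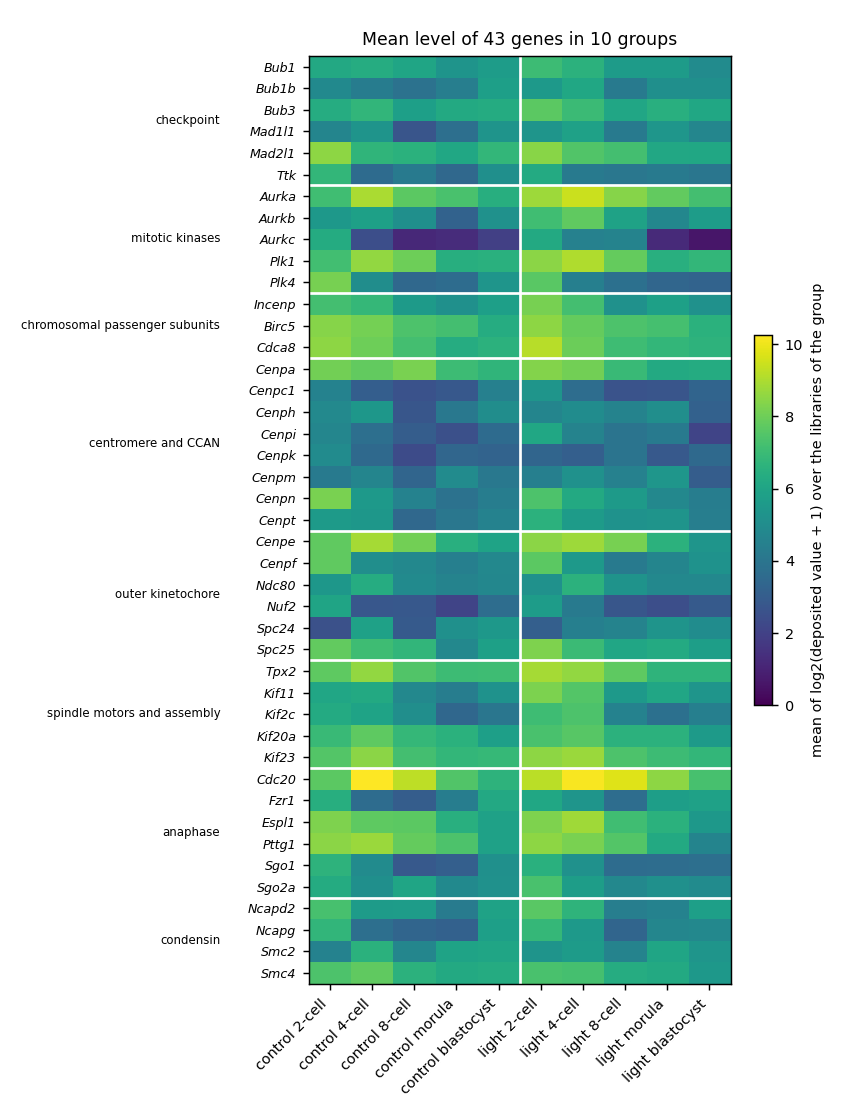
Group means of log2(deposited value + 1) for the 43 members (rows, ordered by role) in 5 control and 5 light groups (columns), from dark (0) to bright. Cdc20 at the 4-cell stage is the brightest cell, and the dark cells include Aurkc from the 8-cell stage on in control embryos and in light morulae and blastocysts.

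Among the 6 checkpoint genes, Mad2l1, whose protein blocks Cdc20 at unattached kinetochores, had the highest level per kilobase at the 2-cell stage (45.7 in control and 43.5 in light), with means of 383 ± 126 (SD, n = 7) and 365 ± 113 (n = 6) as deposited. Ttk, the kinase that starts checkpoint signalling, was at 118 ± 40.7 and 82.4 ± 40.6 there and had means between 17.4 and 35.2 in the 8 later groups. Bub1, the kinase that docks checkpoint proteins, had means between 33.4 and 151, and its partner Bub3 between 63.0 and 218. Bub1b, the BubR1 subunit of the checkpoint complex, lay between 15.7 and 71.7, and Mad1l1, which recruits Mad2l1, between 7.21 and 71.6. Bub1b, Mad1l1 and Bub3 all had their lowest group mean at the control 8-cell stage.

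The kinases differed in when they were abundant. Aurka, which acts at spindle poles, had its highest mean at the 4-cell stage in both groups (289.6 to 917 over 6 control libraries and 504 to 1103 over 8 light ones), as did Plk1, which acts at centrosomes, kinetochores and the midbody (means of 470.3 ± 329 and 536 ± 116). Aurkb, the kinase of the chromosomal passenger complex, varied widely within groups and ran from 7.59 to 175 over the control 2-cell libraries alone. Aurkc, which stands in for Aurkb in oocytes and early embryos, had 89.8 ± 41.7 at the control 2-cell stage, 11.0 ± 11.9 at the 4-cell stage and means of 2.27 to 4.43 in the later control groups. Plk4, which starts centriole duplication, fell from 296 ± 81.2 to 40.7 ± 27.6 between the first of these stages in control and from 218 ± 91.2 to 25.0 ± 15.6 in light. The other passenger subunits, Incenp (the scaffold), Birc5 (survivin) and Cdca8 (borealin), were all highest at the 2-cell stage, Cdca8 with 419 ± 208 in control and 585 ± 160.0 in light.

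Of the 8 genes of the centromere and its constitutive network, Cenpa, the histone variant that marks the centromere, had group means between 84.9 and 341. Cenpn, whose protein reads the Cenpa nucleosome, fell after the 2-cell stage, from 312 ± 120.2 to 79.3 ± 60.9 in control. Cenpc1, Cenph, Cenpi, Cenpk, Cenpm and Cenpt, which link that chromatin to the outer kinetochore, had group means between 5.59 (Cenpi, light blastocysts) and 101 (Cenpt, light 2-cell). Of the outer kinetochore genes, the subunits of the microtubule-binding Ndc80 complex did not share a pattern. Per kilobase, Spc24 had 3.22 at the control 2-cell stage, where its partner Spc25 had 73.8, Ndc80 7.82 and Nuf2 11.6. Cenpe, a kinesin that carries chromosomes to the plate, ran from 46.8 to 491, and Cenpf, a large protein of the outer kinetochore, had 237 and 206 at the 2-cell stage and at most 48.1 in the later groups.

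Spindle genes were highest at the 2-cell or 4-cell stage. Tpx2, which activates Aurka on the spindle, had means between 103 and 511, Kif11, the motor that pushes the poles apart, between 29.7 and 322, and Kif2c, a microtubule depolymerase, between 17.0 and 174. Kif20a and Kif23, motors of the central spindle and cytokinesis, reached 240.3 and 425. Of the Kif20a exon bases 29.3% and of the Sgo2a exon bases 35.0% overlap another gene (Cdc23 and Kctd18), and since no source gives the strand setting of the counting, values of both are uncertain. Among the anaphase genes, Fzr1, the activator that takes over from Cdc20, had 94.9 ± 42.1 at the control 2-cell and 21.0 ± 19.8 at the 4-cell stage. Espl1 (separase) ran from 46.7 to 454, Pttg1 from 31.1 to 506, Sgo1 and Sgo2a, which protect centromeric cohesin, from 12.0 to 163. The condensin subunits Ncapd2, Ncapg, Smc2 and Smc4 lay between 12.1 (Ncapg, light 8-cell) and 227 (Smc4, control 4-cell).

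Summed over the 43 members, their share of the reads outside the 2 ribosomal RNA-like genes, which needs no scaling factor, was 0.498% ± 0.102 (SD, n = 7) in control and 0.727% ± 0.108 (n = 6) in light 2-cell libraries. It ran over 0.372% to 0.640% and 0.534% to 0.828%, so that the groups overlapped, with 5 of 6 light libraries above every control library. At the 4-cell stage the shares were 0.703% ± 0.101 (n = 6) and 0.799% ± 0.0717 (n = 8), and at the 8-cell stage 0.632% ± 0.0817 (n = 4) and 0.618% ± 0.0679 (n = 8), with overlap at both. Morulae had 0.380% ± 0.0737 (n = 13) and 0.485% ± 0.0684 (n = 6). In blastocysts the shares were 0.379% ± 0.0752 (n = 3) and 0.546% ± 0.0736 (n = 6), and all 6 light libraries lay above all 3 control libraries. A library can take a larger share because other genes take less, and these shares carry no test.

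**Figure D2:**
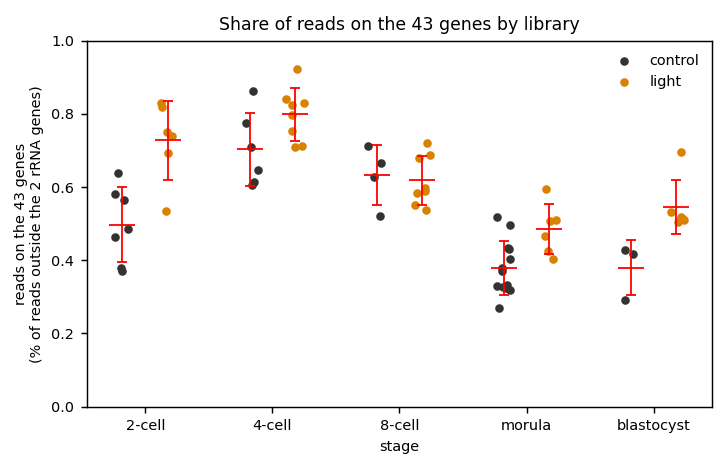
Reads on the 43 members as a percent of the reads outside CT010467.1 and Gm42418 (vertical axis) in each library, by stage, with the mean and SD of each group as bars. Light libraries lie higher at the 2-cell stage (mean 0.727% against 0.498%) and in blastocysts (0.546% against 0.379%), and both groups are at about the same share at the 8-cell stage.

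The first question of the design is how light and control libraries differed within a stage. At the 2-cell stage, 6 of the 43 members were higher in light and none was lower. They were Kif11, Aurka, Cdc20, Plk1, Bub3 and Tpx2, which is 1 checkpoint gene of 6, 2 kinases of 5, 2 spindle genes of 5 and 1 anaphase gene of 6. A gene was called in limma on log2(value + 1) with a Benjamini-Hochberg adjusted p under 0.05 over all genes tested and a fold of at least 2, and fold changes are given on that log2 scale with their standard error. The 6 members are 14.0% of the list, and 5.53% of all 18510 genes tested were called higher and 4.96% lower. The median log2 fold change was 0.45 over the members and 0.00 over all genes tested, and 29 members lay above the median of all genes. An unadjusted p under 0.05 was found for 16 members and for 25.8% of all genes. The direction of the remaining members depends on the scaling, since scaling by the median ratio moved the median of all genes to -0.30 and that of the members to 0.00, with 3 members called higher (Kif11, Aurka and Cdc20) and 2 lower (Cenpk and Cenpn).

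Kif11 had the largest difference at the 2-cell stage. Its lowest, median and highest values were 30.5, 75.0 and 155 in 7 control and 137, 315 and 488 in 6 light libraries. The highest control library passed the lowest light one, and the other light libraries were above all control libraries. The fold change was 2.16 ± 0.39 (adjusted p = 0.000453), and with the median ratio 1.71 (adjusted p = 0.000963). Cdc20 values were 76.6, 260.3 and 296 in control and 379, 619 and 827 in light libraries (lowest, median, highest), and the groups did not overlap, as was so for 4.15% of all genes tested. Its fold change was 1.52 ± 0.31 (adjusted p = 0.0017), and 1.07 (adjusted p = 0.00888) with the median ratio. In RPM outside the 2 ribosomal RNA-like genes, Cdc20 ran over 68.1 to 226 in control and 278 to 607 in light, again without overlap, and Kif11 over 27.2 to 117 and 98.5 to 357.

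Aurka and its partner Tpx2 were both higher in light 2-cell libraries. Aurka lay at 70.4, 141 and 298 in control and 279.8, 439 and 652 in light libraries (lowest, median, highest), a fold change of 1.64 ± 0.33 (adjusted p = 0.00128), with the top control library inside the light range. Tpx2 had 73.0, 328 and 407 and 240.3, 516 and 881. Control libraries of Tpx2 fell into 3 low and 4 high values, the high ones overlapped the light range, and the fold change was 1.15 ± 0.38 (adjusted p = 0.049). Plk1, which acts with both at the spindle pole, had 78.5, 142 and 269 in control and 204, 385 and 535 in light, a fold change of 1.34 ± 0.33 (adjusted p = 0.00731). The highest 2 control libraries of Plk1 lay above the lowest light library. Bub3 had 26.9, 99.1 and 219.9 and 96.8, 225 and 287, with a fold change of 1.33 ± 0.43 (adjusted p = 0.0385), and 4 control libraries lay above the lowest light one. The calls of Bub3 and Tpx2 were close to the threshold and were lost on leaving out any 1 of 8 and any 1 of 7 of the 13 libraries, and Plk1 had an adjusted p of 0.0522 with the median ratio. Kif23 had an adjusted p of 0.0388 and a fold change of 0.99 ± 0.32, just under the fold threshold.

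At the 4-cell stage Aurkb alone was called, higher in light, so 1 of 43 members (2.33%) beside 1.12% of 14995 genes tested called higher and 0.333% called lower. Its lowest, median and highest values were 22.9, 58.5 and 153 in 6 control and 127, 224 and 418 in 8 light libraries, with a fold change of 1.91 ± 0.40 (adjusted p = 0.0178). The highest control value lay within the light range and the other control values below it. The median fold change was 0.36 over the members and 0.13 over all genes. An unadjusted p under 0.05 was found for 10 members and for 17.5% of all genes. Without control 4-cell library 3, which stood closer to the light libraries, Aurkb, Kif2c and Espl1 were called higher, and 772 of all genes in place of 218. With all libraries Kif2c had 1.43 ± 0.45 (adjusted p = 0.1) and Espl1 1.07 ± 0.32 (adjusted p = 0.085). Aurkb was not called with no filter on low values, nor in a fit over all 67 libraries.

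At the 8-cell stage Aurkc and Spc24 were higher in light and Cenpa was lower, 2 of 43 (4.65%) and 1 of 43 (2.33%), beside 5.91% of 13844 genes called higher and 3.29% called lower. Aurkc had 7.40, 0.532, 1.16 and 0 in the 4 control libraries, which is 8, 1, 1 and 0 reads, and 10.1, 26.8 and 43.7 (lowest, median, highest) in 8 light libraries. No light library was as low as any control library. The fold change was 3.40 ± 0.68 (adjusted p = 0.0025), it was called in all 7 alternatives tried and without each of the 12 libraries, and with the median ratio it was 3.30. Aurkb, a close relative of Aurkc, differed by 0.79 ± 0.60 (adjusted p = 0.434), and how reads that match both were counted was not tested.

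Spc24 had 5.55, 6.39, 6.97 and 7.09 in the control 8-cell libraries and 15.2, 25.5 and 28.9 in the light ones (lowest, median, highest). The groups did not overlap, as was so for 5.61% of all genes tested, and the fold change was 1.70 ± 0.51 (adjusted p = 0.0342). This call was lost with the median ratio (adjusted p = 0.0573), with edgeR and on leaving out any 1 of 9 libraries. Cenpa had 442, 281, 249.6 and 227 in control and 77.5, 108 and 229 in light. Only the highest light library reached the control range, and the fold change was -1.21 ± 0.31 (adjusted p = 0.0145), with -1.43 under the median ratio. Without control 8-cell library 1, the highest in Cenpa, the call was lost. The median over the members was 0.20 and over all genes 0.16, and 9 members and 25.3% of all genes had an unadjusted p under 0.05. With the median ratio 1 member was higher (Aurkc) and 2 were lower (Cenpa and Sgo2a).

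In morulae limma called 0 of 43 members, beside 0.355% of 15201 genes called higher and 0.822% lower. An unadjusted p under 0.05 was found for 7 members and for 15.4% of all genes. Pttg1 came closest, with 176 ± 58.3 (n = 13) in control and 84.5 ± 43.9 (n = 6) in light, a fold change of -1.16 ± 0.35 and an adjusted p of 0.0877. Cdc20 had 194 ± 79.2 and 424 ± 269, a fold change of 1.01 ± 0.33 with an adjusted p of 0.118, and it was called higher by edgeR, by DESeq2 and with the median ratio. The median was 0.30 over the members and 0.10 over all genes. In blastocysts limma called 0 members as well, beside 0.354% of 12728 genes higher and 4.98% lower. An unadjusted p under 0.05 was found for 4 members and for 23.2% of all genes. The whole table was shifted there, with a median of -0.64 over all genes and -0.39 over the members. Plk4, the smallest in p, had 28.4, 48.7 and 46.9 in the 3 control and 3.10, 9.66 and 21.0 (lowest, median, highest) in the 6 light libraries. These groups did not overlap, as was so for 12.5% of all genes tested and for Cenph and Ncapg among the members, and the fold change of Plk4 was -2.08 ± 0.66 with an adjusted p of 0.0642. With the median ratio, which put the median of all genes at -0.10 and that of the members at 0.30, Cdc20 and Aurka were called higher, as by DESeq2, while edgeR called 0. Cdc20 had 86.3, 87.3 and 129.7 in control and 95.7, 158 and 295 in light blastocysts on the deposited scale. Inner cell mass markers summed to 82.2 to 1234 in control and 9.00 to 32.8 in light blastocyst libraries, trophectoderm markers to 455 to 6121 and 2631 to 6796, and their part in the values of the members was not tested.

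**Figure D3:**
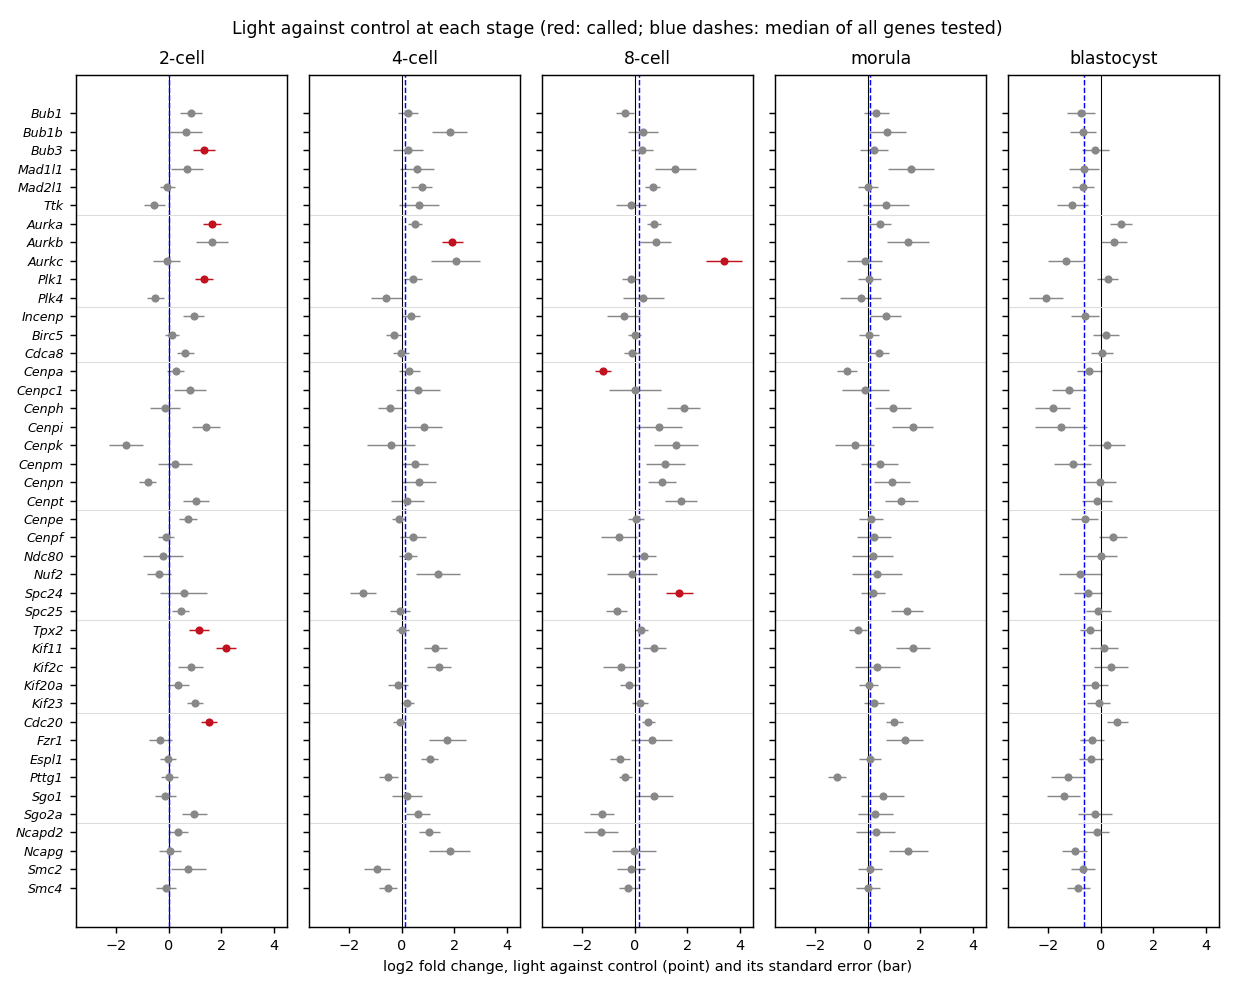
Log2 fold change of light against control (point) with its standard error (bar) for each of the 43 members (rows) at the 5 stages (panels). Red points passed the thresholds (6, 1, 3, 0 and 0 members), and the dashed blue line is the median of all genes tested, which is -0.64 in blastocysts.

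**Figure D4:**
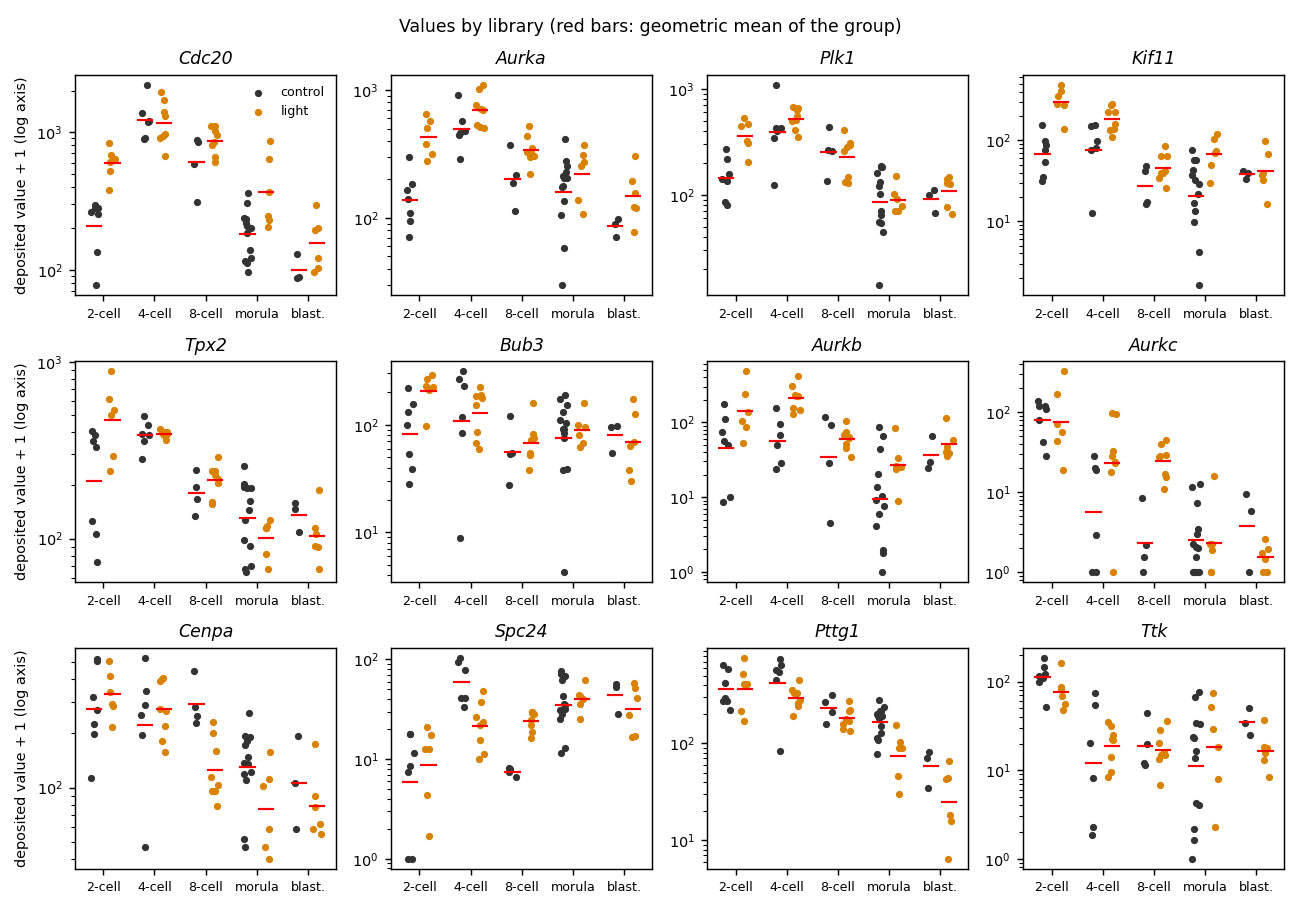
Deposited value plus 1 (vertical axis, log scale) in each library for 12 members by stage, control and light side by side in the colours of the legend, with the geometric mean of each group as a red bar. Light and control do not overlap for Cdc20 at the 2-cell stage and for Aurkc and Spc24 at the 8-cell stage.

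The second question is how the members changed from stage to stage, in 1 fit over all 67 libraries. From the 2-cell to the 4-cell stage of control embryos 6 members rose and 11 fell, or 14.0% and 25.6%, beside 12.6% and 29.8% of 22564 genes. The rises were Spc24, Cdc20, Smc2, Aurka, Plk1 and Cenpe, and the falls Aurkc, Ttk, Nuf2, Plk4, Ncapg, Fzr1, Cenpf, Cenpn, Mad2l1, Sgo1 and Ncapd2. Spc24 went from 0, 7.59 and 17.0 to 32.4, 58.8 and 102 (lowest, median, highest), with no overlap and a fold change of 3.34 ± 0.54 (adjusted p = 3.87e-07). Cdc20 went from 76.6, 260.3 and 296 to 884, 1197 and 2216, a fold change of 2.58 ± 0.32 (adjusted p = 3.06e-10), again without overlap. Its alternative activator of the anaphase-promoting complex, Fzr1, fell by 2.83 on the log2 scale (adjusted p = 0.000632). Aurkc went from 27.6, 108 and 135 to 0, 9.90 and 27.4, just without overlap, a fold change of -3.83 ± 0.78 (adjusted p = 3.39e-05), while Aurka rose by 1.85 (adjusted p = 2.8e-05). The 2 stages did not overlap for 7 of 43 members and for 16.0% of all genes. Ttk went from 50.4, 115 and 182 to 0.852, 13.2 and 73.3, with overlap, and a fold change of -3.23 ± 0.75 (adjusted p = 0.000231). Within 1 complex the subunits parted, since Spc24 rose as Nuf2 fell by 3.21 (adjusted p = 0.00168), and Smc2 rose by 1.98 (adjusted p = 0.00201) as its condensin partners Ncapg and Ncapd2 fell.

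From the 4-cell to the 8-cell stage of control embryos 0 members rose and 3 fell (6.98%), beside 1.78% and 4.97% of all genes. An unadjusted p under 0.05 was found for 13 members and for 19.6% of all genes. Spc24 fell back from 32.4, 58.8 and 102 to 5.55, 6.39, 6.97 and 7.09 in the 4 libraries, a fold change of -2.99 ± 0.63 (adjusted p = 0.00102). Cenph fell from 21.7, 45.3 and 58.3 to 10.2, 0.532, 9.29 and 10.0, a fold change of -2.69 ± 0.69 (adjusted p = 0.00819). Neither pair of groups overlapped, as was so for 7 of 43 members and for 4.06% of all genes, and Kif23 had -1.29 ± 0.40 (adjusted p = 0.0332). Cenph and Kif23 were not called with the median ratio, and the median of the members was -0.88 beside -0.14 over all genes. From the 8-cell stage to morula Spc24 rose and 6 members fell (2.33% and 14.0%, beside 6.63% and 8.12% of all genes). Spc24 reached 10.5, 33.5 and 75.4 in 13 morula libraries, a fold change of 2.24 ± 0.56 (adjusted p = 0.00276). The largest falls were those of Spc25, from 72.2, 162, 65.0 and 179 to 1.05, 28.9 and 116 (-1.99 ± 0.51, adjusted p = 0.00385), and Cdc20, from 844, 874, 309 and 588 to 95.4, 199 and 359 (-1.75 ± 0.33, adjusted p = 6.34e-05). Both overlapped between the stages, and Cenpe, Plk1, Espl1 and Cenpa fell as well, by 1.61, 1.55, 1.22 and 1.15.

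From morula to blastocyst in control embryos 1 member rose and 1 fell (2.33% each, beside 8.31% and 5.29% of all genes). Ncapg rose from 0, 7.79 and 80.7 to 38.4, 61.6 and 68.1 in the 3 blastocyst libraries (2.62 ± 0.86, adjusted p = 0.0296). Pttg1 fell from 75.9, 191 and 283 to 70.5, 80.7 and 34.0 (-1.50 ± 0.46, adjusted p = 0.0186), and both overlapped. This step rests on 3 libraries, and with the median ratio 8 members rose and Pttg1 fell. Without control blastocyst library 3 neither was called.

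In light embryos limma on the deposited scale called no member higher in any of the 4 steps. From the 2-cell to the 4-cell stage 6 fell (14.0%), beside 4.84% of all genes called higher and 21.7% lower, namely Plk4 (-3.21), Cenpf (-2.18), Ttk (-2.04), Sgo2a (-1.59), Spc25 (-1.26) and Cdca8 (-1.19). With the median ratio 2 rose (Cdc20 and Spc24) and Sgo2a and Spc25 were not called. With edgeR 2 rose (Cdc20 and Aurka) and only Plk4 and Cenpf fell. Spc25 was also lost on leaving out any 1 of 9 of the 14 libraries. From the 4-cell to the 8-cell stage 6 fell (14.0%), beside 0.164% higher and 2.18% lower, with 3 of the 5 spindle genes among them. Kif2c fell from 123, 154 and 257 to 4.98, 26.5 and 112 (-2.84 ± 0.65, adjusted p = 0.00779), and Ncapd2, Incenp, Kif11, Espl1 and Kif23 by 2.29 to 1.31. The median of the members in this step was -0.94 and of all genes -0.20. An unadjusted p under 0.05 was found for 24 members and for 14.2% of all genes. Yet with the median ratio, where the members' median was -0.39, and with edgeR 0 members were called. From the 8-cell stage to morula 7 fell (16.3%, beside 1.76% higher and 2.84% lower). Aurkc fell from 10.1, 26.8 and 43.7 to 0, 1.04 and 15.0 (-3.39 ± 0.76, adjusted p = 0.00248), with Cenpe, Plk1, Pttg1, Cdc20, Tpx2 and Mad2l1 between -1.53 and -1.07. With the median ratio Fzr1 and Smc2 rose and Aurkc, Cdc20, Plk1 and Cenpe fell. With edgeR Fzr1 and Smc2 rose and Cdc20, Tpx2, Plk1 and Cenpe fell, so that the calls of Aurkc, Mad2l1 and Pttg1 were lost. From morula to blastocyst Cenpm, Cenph, Pttg1, Cenpe and Cdc20 fell (5 of 43, 11.6%, beside 2.01% higher and 6.38% lower), by 2.37 to 1.23. With the median ratio none of these 5 was called, though all stayed below 0, and 3 other members rose (Tpx2, Plk1 and Ncapd2), while edgeR called 1, Ncapd2, higher.

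The steps of light and control embryos were compared by the interaction term of the same fit. From the 2-cell to the 4-cell stage Cdc20 was the 1 member called, beside 6.37% of 22564 genes called in either direction. It rose by 2.58 in control and differed by 0.98 in light (adjusted p = 0.0127, under the fold threshold), and the difference of the steps was -1.60 ± 0.45 (adjusted p = 0.0203). At the 4-cell stage Cdc20 stood at 884 to 2216 in control and 675 to 1965 in light libraries, which overlapped. The difference was -1.10 with an adjusted p of 0.0505 under the median ratio, where Mad2l1 and Espl1 were called instead, and was also lost without control 4-cell library 6. In simulated data this comparison gave more false calls (26) than planted changes recovered (3.5% of 200), so the call of Cdc20 may be false. From the 4-cell to the 8-cell stage Spc24 was the 1 member called, beside 2.51% of all genes. Spc24 fell by 2.99 in control and differed by 0.17 in light, where it stood at 9.12, 22.0 and 47.2 and 15.2, 25.5 and 28.9 at both stages, and the difference of the steps was 3.16 ± 0.80 (adjusted p = 0.0142), 2.89 with the median ratio, where Cenpa and Espl1 were called as well. The Spc24 difference was not called with a pseudocount of 0.1. In the later steps limma called 0 members, beside 1.65% and 1.82% of all genes. An unadjusted p under 0.05 was found for 2 and 4 members, beside 12.4% and 15.1% of all genes. With edgeR Spc25 was called from the 8-cell stage to morula and 0 after it.

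**Figure D5:**
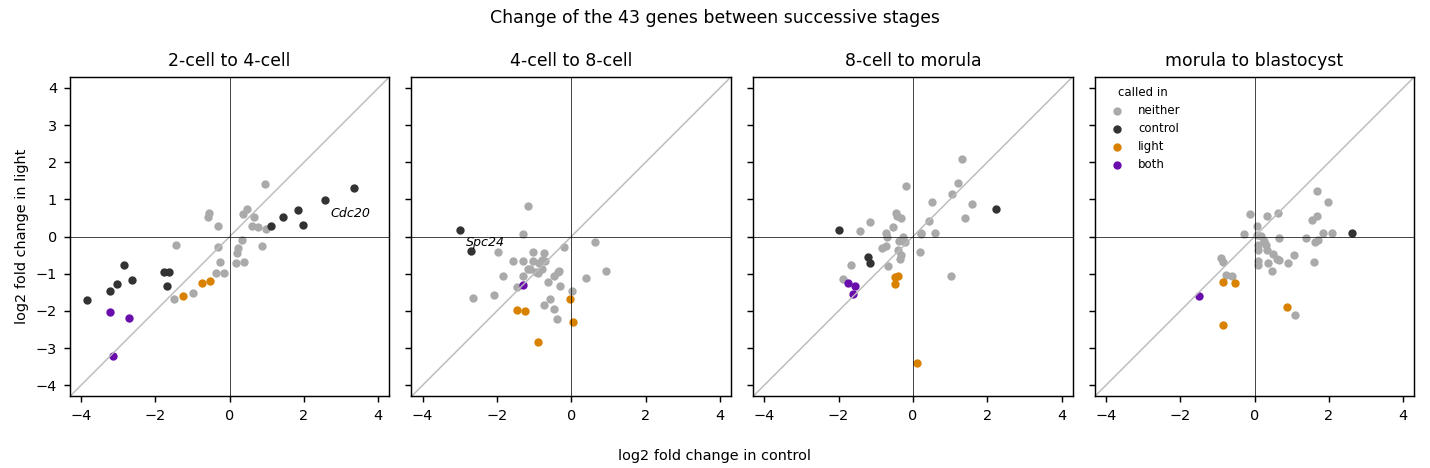
Log2 fold change of each member between successive stages in control (horizontal axis) and light embryos (vertical axis), with the diagonal of equal change. Points are coloured by the group in which the step was called, and the 2 named members, Cdc20 (2.58 in control, 0.98 in light) and Spc24 (-2.99 in control, 0.17 in light), passed the test of the difference.

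The 3 Aurora kinases can be set side by side per kilobase of exon. Aurka had mean levels of 59.7, 208, 87.2, 74.7 and 33.7 per kilobase over the 5 control stages and 178, 288, 137, 95.5 and 63.6 over the light ones. Aurkb had 23.3, 23.4, 20.4, 6.73 and 13.3 in control and 61.8, 78.0, 20.9, 11.0 and 18.7 in light. Aurkc had 59.0, 7.23, 1.49, 1.86 and 2.91 in control and 74.3, 25.4, 16.8, 2.01 and 0.402 in light. Aurka had the highest mean of the 3 in all 10 groups, by little over Aurkc at the control 2-cell stage. The mean of Aurkc per kilobase was above that of Aurkb at the 2-cell stage in both groups and below it later. In light 2-cell libraries this order leaned on library 10, with 462 reads of Aurkc, beside 11 to 123 in the others. By the mean of log2(value + 1), not divided by length, Aurkb was above Aurkc there (7.13 against 6.24). Each kinase was called higher in light at 1 stage, Aurka at the 2-cell, Aurkb at the 4-cell and Aurkc at the 8-cell stage, and whether these differences changed between stages is given by the interactions, none of which was called for the 3 kinases.

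Likeness of pattern was described by Pearson's correlation of the 10 group means of each member with the mean of the other members. Incenp (0.967), Cdca8 (0.952) and Kif2c (0.904) were most like the rest. Spc24 (-0.482), Smc2 (-0.129) and Cenpm (0.262) were least like it, the first of these low at the 2-cell stage where most others were high. The median over the 43 was 0.786. All points share libraries and their scaling factors.

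Other genes of the division machinery were tested on the deposited scale only, and their counts stand beside the 5.53% of all genes called higher and 4.96% called lower in light 2-cell libraries. Of 29 other kinetochore and checkpoint genes, 3 were higher and 0 lower in light 2-cell libraries, among them Dsn1 (1.06, adjusted p = 0.0266) of the Mis12 complex and Ska1 (1.16, adjusted p = 0.0357), which helps the Ndc80 complex hold microtubules. Of 18 genes of the anaphase-promoting complex and its regulators 3 were higher and 0 lower, among them the subunit Anapc7 (2.40, adjusted p = 0.00102) and the ubiquitin-conjugating enzyme Ube2c (1.08, adjusted p = 0.0213). Of 23 other spindle and cytokinesis genes 4 were higher, led by the tubulin Tubb4b (1.78, adjusted p = 0.000286), and 2 lower, led by Numa1 (-1.50, adjusted p = 0.000852), which anchors microtubules at the poles. Of 20 cohesin and other condensin genes tested 1 was higher, Smc3 (1.84, adjusted p = 0.0143), and 2 were lower, led by the cohesin release factor Wapl (-1.15, adjusted p = 0.000555). The 15 centrosome and centriole genes had 0 higher and 2 lower, Cep135 (-2.22, adjusted p = 0.00522) and Cenpj (-1.54, adjusted p = 0.0408). Both of these build centrioles. The medians of the 5 lists were 0.32, 0.59, 0.42, -0.09 and 0.23 in the order given, beside 0.00 over all genes.

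At the 4-cell stage the only call among these lists was Fbxo5 (2.60, adjusted p = 0.0376), the gene of Emi1, an inhibitor of the anaphase-promoting complex. At the 8-cell stage each of the 5 lists, of 15 to 28 genes tested, had 1 or 2 genes higher, beside 5.91% of all genes called higher and 3.29% lower. They included Anapc10 (2.30, adjusted p = 0.000226), Cenpx (3.45, adjusted p = 0.00269), Esco2 (1.44, adjusted p = 0.000712) and Tubgcp3 (3.30, adjusted p = 0.00509), and 2 of the lists had 1 gene lower, Kntc1 (-2.72, adjusted p = 0.0208) and Pds5a (-1.60, adjusted p = 0.00286). Morulae and blastocysts had 1 call each, both lower and both of cohesin, Nipbl (-1.54, adjusted p = 0.0312), which loads it, and Smc1a (-1.66, adjusted p = 0.047), one of its subunits. In the control step from the 2-cell to the 4-cell stage 2, 7, 2, 2 and 3 of the 29, 18, 20, 23 and 15 genes of the kinetochore, anaphase-promoting complex, cohesin, spindle and centrosome lists rose and 10, 4, 7, 3 and 7 fell, beside 12.6% and 29.8% of all genes. They included Wapl (-3.68, adjusted p = 9.34e-17), Fbxo43 (-5.91, adjusted p = 1.99e-13), the gene of Emi2 that arrests the egg at metaphase, and Trip13 (3.49, adjusted p = 2.95e-10), which dismantles the checkpoint complex. The difference between light and control steps was called for Smc3 and Cenpb from the 2-cell to the 4-cell stage, for Cenpx, Fbxo43, Anapc10 and Tubgcp3 from the 4-cell to the 8-cell stage, and for Cenpx, Anapc10 and Stil from the 8-cell stage to morula.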

How the data were processed

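Single embryonic cells had been sequenced by SMART-seq2. The submitters' processing notes name HISAT2, HTSeq 0.9.1 and mm9, and the study describes normalization to RPKM. No division by gene length was found in the table: the deposited signal values were whole reads divided by 1 size factor per library, with at least 99.97% of all values, zeros included, whole within 0.01. Reads were recovered on that basis, and 24 gene symbols turned into dates were left out of the tests. Labels gave the stage, treatment and embryo number of the 67 libraries. Table columns were matched to the light libraries by stage and number, since their names carry another prefix than the labels. The notes name mm9, while symbols in the table are those of a GRCm38 annotation. The members, the gene lists and the tests were chosen with earlier results of these data known.

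Light was compared with control stage by stage with limma 3.58.1 (R 4.3.3, with a trended prior) on log2(value + 1), over genes above 1 in at least 3 libraries, so fold changes of low genes are understated. Steps and their differences came from 1 limma model of 10 groups over 67 libraries. A call needed a Benjamini-Hochberg adjusted p under 0.05 over all genes tested and a fold of at least 2. All 43 members passed the filter in every comparison. Members with calls in light against control were named, and for each control step the 2 largest rises and falls. The scripts were tested on simulated data with 200 planted changes per comparison. For light against control 14%, 30.5%, 15.5%, 46% and 6% of these were recovered by stage in order. For the difference of steps from 2 to 4 cells 3.5% were recovered. A member not called may therefore still differ. False calls numbered 35 in morulae and 26 for that difference, where they outnumbered the planted changes recovered (3.5% of 200). A call of that difference, such as that of Cdc20, may therefore be false. Alternatives were a pseudocount of 0.1, no filter, a mean above 5, scaling by the median ratio over 3430 genes with reads in all libraries, edgeR 4.0.16 and DESeq2 1.42.0 on the recovered reads, other sets of libraries, the leaving out of single libraries, and the embryo number as a blocking factor. Exon lengths and overlaps came from GENCODE M21 and promoters from RefSeq, both on GRCm38.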

Additional observations from a re-analysis of the deposited data

Results flagged for a closer look

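The share of reads on the members in light blastocyst library 15 was 0.695%, apart from the other 5 light blastocysts, of which the nearest had 0.532%. Aurkc in control 8-cell library 1 had a value of 7.40, with 1.16 in the nearest of the other 3 libraries. Among 28 sets of values checked in this way, chance alone sets a library apart in about 1 of 20. The step of Cdc20 from the 2-cell to the 4-cell stage differed between light and control by -1.60 (limma interaction, adjusted p = 0.0203), and that of Spc24 from the 4-cell to the 8-cell stage by 3.16 (adjusted p = 0.0142). For the comparison that called Cdc20, false calls outnumbered the planted changes recovered in simulated data.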

How the results depend on the processing

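Of the counts of members called, those of light against control in 2-cell embryos and of the control step from 2 to 4 cells stayed within 1.5 times under every alternative other than the block. The members behind the count in 2-cell embryos did change. Bub3 and Tpx2 were each kept in 4 of 8 alternatives, and the median ratio called Cenpk and Cenpn lower. With the median ratio the counts were 1 in morulae, 2 in blastocysts, 1 for the control step from 4 to 8 cells, 9 for control morula to blastocyst, 0 for the light step from 4 to 8 cells, 3 for light morula to blastocyst, and 2, 3 and 1 for the first 3 differences of steps. Under edgeR they were 1 in morulae, 1 for the control step from 4 to 8 cells, 1 for control morula to blastocyst, 0 for the light step from 4 to 8 cells, 1 for light morula to blastocyst and 1 for the difference from 8 cells to morula. On the recovered reads edgeR called, of all genes, 2162 for light against control, 2-cell, 190 for light against control, 4-cell, 888 for light against control, 8-cell, 203 for light against control, morula and 151 for light against control, blastocyst, where limma called 1943, 218, 1273, 179 and 679. DESeq2 gave 3 in 4-cell embryos, 1 in morulae and 2 in blastocysts. One fit over all libraries gave 0 in 4-cell embryos, 1 in 8-cell embryos and 3 in morulae, and no filter gave 0 in 4-cell embryos. A pseudocount of 0.1 gave 1 for control morula to blastocyst, 3 for the light step from 2 to 4 cells, 3 for light morula to blastocyst and 0 for the difference from 4 to 8 cells. Fits over only 2 stages gave 4 for control 8 cells to morula, 1 for control morula to blastocyst, and 12, 16 and 8 for the light steps from 2 to 4 cells, from 4 to 8 cells and from morula to blastocyst. No direction of a called member reversed in the comparison of its call, and members named without a call were not checked for this. The cause of the changed counts was not tested.

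With the replicate number as a block, 0 members were called in 2-cell, 4-cell and morula embryos, 0 for the control steps from 4 to 8 cells, 8 cells to morula and morula to blastocyst, 0 for the light step from 2 to 4 cells, 9 for that from 4 to 8 cells and 2 for that from 8 cells to morula. Deviations of same-numbered light and control libraries of a stage from their group means correlated at -0.068 to 0.069 over 10 pairs, and 0 of 20 libraries correlated best with their own number. Same-numbered libraries of different stages were not compared, and whether libraries with a shared number share a batch was not tested. In the blocked fit only libraries with shared numbers carry the contrast. No paired analysis was possible because fewer than 2 numbers were shared for light against control in 8-cell embryos and blastocysts, control 2 to 4 cells and light morula to blastocyst.

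Leaving out 1 library at a time gave 4 to 8 members in 2-cell embryos, 1 to 3 in 4-cell embryos, 1 to 4 in 8-cell embryos, 0 in morulae and 0 to 1 in blastocysts. It gave 16 to 19, 2 to 7, 4 to 9 and 0 to 4 for the control steps in order, 3 to 8, 5 to 7, 3 to 7 and 2 to 5 for the light steps, and 0 to 2, 1 to 1, 0 to 1 and 0 to 0 for the differences. Counts moved by over 1.5 times without control 4-cell library 3 (3), control 8-cell library 1 (1) or light blastocyst library 23 (1) for light against control. For control steps this held without control 4-cell library 2 (7 from 4 to 8 cells), control 8-cell library 2 (4 to morula), and, to blastocyst, control morula library 20 (4), control blastocyst libraries 1 and 2 (1 each) and 3 (0). For light steps it held without light 2-cell library 16 (3), for 8 cells to morula without light 8-cell libraries 7 (3), 8 and 11 (4 each) or light morula libraries 12 (3), 1 and 3 (4 each), and to blastocyst without light morula libraries 1, 3 and 5 (3 each) or light blastocyst libraries 24 (3), 26 and 29 (2 each). For the differences it held without control 4-cell library 6 (0), light 2-cell library 10 (2), light morula library 5 (1) and control 8-cell library 1 (1). Control 8-cell embryos and control blastocysts had 4 and 3 libraries, and members at 1 to 8 reads per library, such as Aurkc, are limited by counting.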
